A study of Mus musculus with 18 samples.

Results

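The transcriptome of normal mouse cortex at E12.5 (embryonic day, in mid-gestation) was described from the 4 libraries labelled WT, out of 18 libraries in the series. These 4 were taken by their genotype label alone, and no measured value was used to choose them. The remaining 14 libraries came from embryos that lack Dmrt3, Dmrt5 or both, and they are used below only to set the level of 2 genes beside the WT level. All WT libraries were made from cortical tissue of C57BL/6 embryos that carried no targeted allele, and the labels give neither the sex of the embryos nor whether a library held 1 embryo or several. The values therefore show the spread between these 4 libraries, which may be partly technical, and the tissue was sequenced whole, so that fewer cells of a type and less RNA per cell cannot be told apart. No comparison between genotypes was made.

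At this stage the cortex is a thin sheet of dividing radial glia that line the ventricle, with a young layer of neurons above them. Radial glia give rise to intermediate progenitors and, directly or through them, to glutamatergic neurons. Signalling centres at the edges of the sheet, among them the medial cortical hem and a rostral source of fibroblast growth factors, pattern it, and graded transcription factors such as Emx2, Pax6, Lhx2 and the Dmrt factors carry that pattern into the progenitors. GABAergic neurons are born outside the cortex, in the ganglionic eminences, and migrate in. Blood vessels, blood and the meninges lie in and around the tissue.

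Each level below is in TPM, a measure of transcript abundance that is a read count divided by the exonic length of the gene and scaled so that each library sums to the same total, and 4 values in a row are replicates 1 to 4 in that order. Values for comparing 1 gene across libraries are also given as CPM, read counts scaled to the size of the library and not divided by length. The libraries held from 19602718 to 32873452 counts on genes, with replicate 2 the shallowest and replicate 4 the deepest. A level of 3 counts, taken as the limit that a count of 0 allows, corresponded to between 0.0889 and 0.160 CPM, and intervals of this kind cover counting error only.

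Across the 4 libraries, 13330 of 21173 protein-coding genes (63.0%) reached a mean of 1 TPM, 9643 reached 10 TPM, and 3961 had no count in any library. The median over all coding genes was 6.29 TPM. Among coding genes at 1 TPM or more the median was 27.1 TPM, 2159 lay from 100 to under 1000 TPM, and 66 exceeded 1000 TPM. Transcription was spread over many genes: 50% of the counts of a library were held by 1463, 1226, 1391 and 1521 genes, and the 10 highest genes took 2.86%, 4.19%, 3.58% and 2.54% of the counts. Apart from coding genes, 1175 processed pseudogenes, 282 long intergenic RNAs and 367 antisense genes passed 1 TPM. The pseudogene and antisense levels are uncertain, because pseudogenes are near copies of coding genes and the library kit does not record strand.

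The 4 libraries differed in a way that followed transcript length. Among coding genes with at least 10 CPM, the 1262 genes with the shortest exonic length (401 to 2270 bases) had median differences from the mean of the 4 libraries of -0.27, 0.60, 0.25 and -0.59 on the log2 CPM scale. In the 1261 longest (9754 bases and over) the same medians were 0.07, -0.37, -0.10 and 0.44. Replicate 2 was thus high in short genes and low in long genes, replicate 4 was the reverse, and replicates 1 and 3 lay between them. Sorting genes by GC content instead gave bin medians no farther from 0 than 0.23. What gave rise to the length trend was not tested. For many of the genes and lists said below to stand apart in 1 library, the difference with the length trend of each library removed is also given, an adjustment chosen after the data had been seen.

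**Figure D1:**
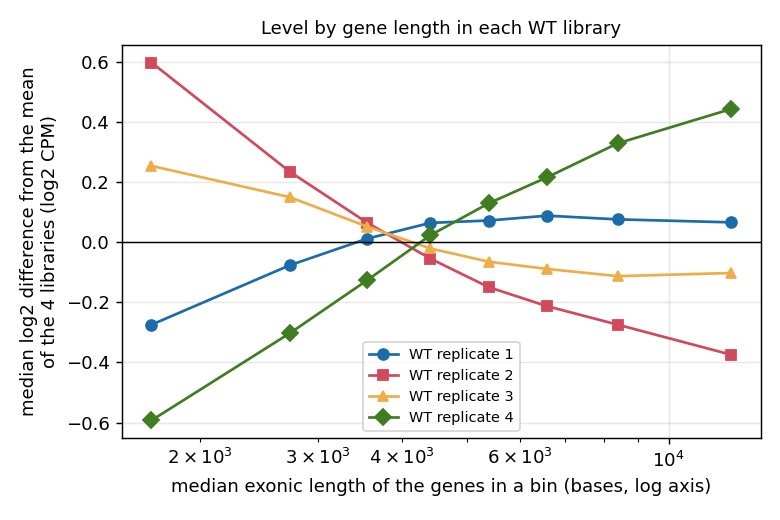
Median log2 difference from the mean of the 4 WT libraries (y axis, log2 CPM) against the median exonic length of the genes in each of 8 length bins (x axis, bases, log axis), with 1 line per library. Replicate 2 falls from 0.60 in the shortest bin to -0.37 in the longest, and replicate 4 rises from -0.59 to 0.44.

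The most abundant coding transcript per length was Hbb-y, the embryonic beta-type globin of primitive red cells (chr7:103851749-103853216 in GRCm38), at 12882, 38737, 29113 and 13810 TPM. Next came its alpha-type partner Hba-x (chr11:32276400-32278116), at 2242, 17856, 9494 and 2426 TPM. In both genes replicates 2 and 3 lay above replicates 1 and 4, without overlap. The next was Nnat, an imprinted gene for a small membrane protein of the developing brain, at 5886, 6536, 7273 and 4569 TPM (mean 6066 ± 1148, SD, n = 4). Among the following ranks were Tubb5 (a beta-tubulin, 5715 ± 541), Tmsb4x (the actin-binding peptide thymosin beta 4, 5113 ± 1438), Hsp90ab1 (a constitutive chaperone, 4494 ± 467) and Actb (cytoplasmic actin, 4106 ± 231).

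A pair of gene groups recurred among the 25 highest genes. The first was the cytoskeleton of growing neurons: Tuba1a stood at 3848 ± 599 TPM, the neuronal beta-tubulin Tubb3 at 3188 ± 497, and Tubb2b at 2131 ± 314. The second was the translation machinery, with Rplp1 at 4917 ± 2174, Rpl8 at 3916 ± 1512, Eef2 at 3475 ± 435 and Eef1a1 at 3319 ± 214. Ribosomal protein genes filled 12 of the 100 highest coding ranks. Their levels carried the length trend, since Rplp1 (499 exonic bases) read 3513, 7814, 5334 and 3008 TPM, highest in replicate 2 and lowest in replicate 4. A total of 65 coding genes were among the 100 highest in every library, and 145 were among them in at least 1.

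Some of these levels depend on how reads that match several places were counted, which the sources used here do not give. Of all 50-base words in the transcripts of Tuba1a, 27.1% occurred in no other gene, against 40.0% in Rplp1, 60.6% in Eef1a1, 27.7% in the alpha-globin Hba-a1 and 10.7% in its copy Hba-a2. The median over the 13330 coding genes at 1 TPM was 100%, and 193 of them fell under 50%, of which 4 were among the 100 highest. The values of Tuba1a, Rplp1, Hba-a1, Hba-a2, Hbb-bs, Hbb-bt and Igf2 are therefore uncertain.

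**Figure D2:**
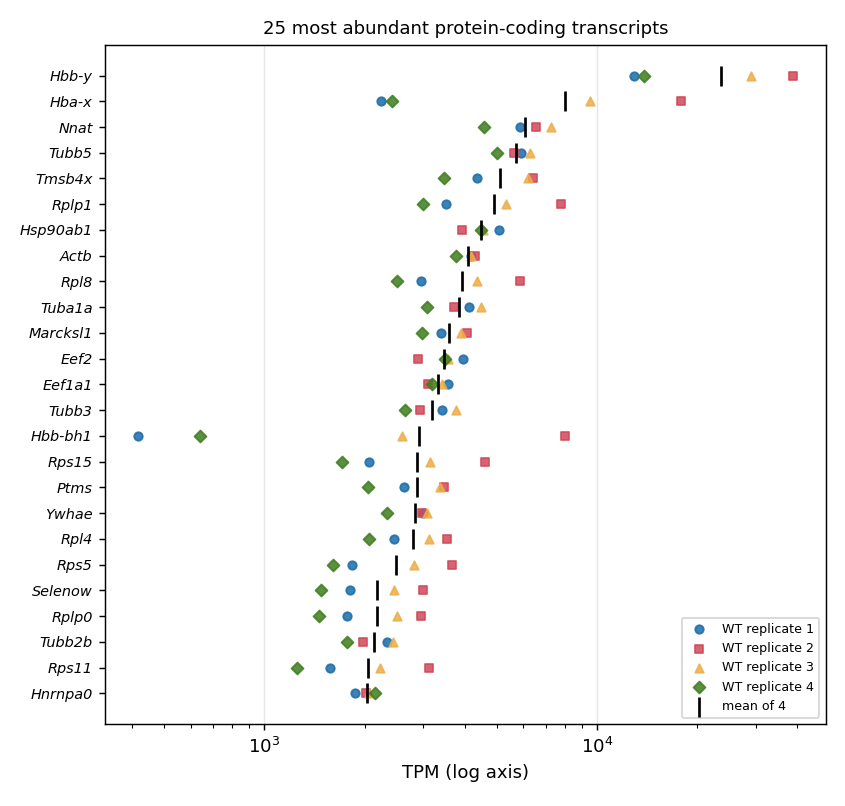
TPM (x axis, log axis) of the 25 protein-coding genes with the highest mean TPM (y axis), with 1 marker per WT library and a bar at the mean of 4. The embryonic globins Hbb-y, Hba-x and Hbb-bh1 spread widest, and Actb, Eef1a1 and Hnrnpa0 lie close together.

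Promoter sequences of 4 genes are shown because their genes stand at the extremes of the ranking: the highest globins, and the highest transcription factors described below. They are the 120 bases before the transcription start in RefSeq for GRCm38.p6, written 5′ to 3′ on the strand of the gene, and were picked after the levels had been seen. In Hbb-y the capitals mark the word CACCC, found in many erythroid promoters, followed downstream by CCAAT. In Hba-x they mark GATAA at the left, then CACCC, and near the start the TATA box word TATAAA. In Lhx2 and Sox2 they mark CG dinucleotides.
Hbb-y (chr7:103853208-103853327, minus strand): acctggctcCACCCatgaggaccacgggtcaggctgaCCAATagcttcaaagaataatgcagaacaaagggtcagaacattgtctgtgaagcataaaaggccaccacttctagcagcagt
Hba-x (chr11:32276480-32276599, plus strand): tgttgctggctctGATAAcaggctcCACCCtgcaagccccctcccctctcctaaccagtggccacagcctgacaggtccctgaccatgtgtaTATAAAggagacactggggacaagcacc
Lhx2 (chr2:38339161-38339280, plus strand): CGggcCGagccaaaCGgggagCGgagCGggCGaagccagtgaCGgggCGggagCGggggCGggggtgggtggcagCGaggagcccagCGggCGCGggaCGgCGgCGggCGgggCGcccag
Sox2 (chr3:34649875-34649994, plus strand): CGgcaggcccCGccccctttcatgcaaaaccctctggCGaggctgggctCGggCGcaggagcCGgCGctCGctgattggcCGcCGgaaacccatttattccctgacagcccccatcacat

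The 120 bases of Lhx2 held 19 CG dinucleotides and those of Sox2 held 10, against 1 in Hbb-y and 0 in Hba-x. The RefSeq table has a second start for Lhx2, and the 120 bases before it (chr2:38351188-38351307) held 8. Over the 250 bases before the start of 16194 coding genes in the RefSeq promoter table, the median was 11 CG dinucleotides. By level it was 1 for 2880 genes with no count, 4 for 2822 genes above 0 and under 1 TPM, 11 from 1 to 10 TPM, 17 from 10 to 100 TPM, 18 from 100 to 1000 TPM and 16 for 51 genes at 1000 TPM and over. The 15 promoters of erythroid genes had a median of 3, the 13 of microglial genes 4, and the 12 of dorsal pallial progenitor genes 21.5. A word was counted on either strand: TATAAA lay in 11.7% of all these promoters and 33.3% of the erythroid ones, CCAAT in 36.0% and 53.3%, CACCC in 54.0% and 73.3%, and GATAA, the word bound by GATA factors, in 20.2% and 80.0%. A match describes letters and was not tested as a binding site. The list of erythroid genes was chosen with these data in view, and no test was made of these shares.

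Transcription factors of 27 families were followed as a set of 350 genes, of which 349 were measured. Of these, 229 reached 1 TPM (65.6%, beside 63.0% of all coding genes), 185 reached 10 TPM, 55 reached 100 TPM and 32 had no count. Their median was 11.6 TPM, beside 6.29 TPM over all coding genes. Together they summed to 19275, 14749, 17408 and 20938 TPM (18093 ± 2655), lowest in replicate 2.

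Sox2, which maintains neural progenitors, headed the list at 693, 632, 666 and 773 TPM (691 ± 60.3). Second was Lhx2, a LIM homeodomain factor required for cortical identity (chr2:38339281-38369733), at 758, 476, 638 and 742 TPM (654 ± 130). The ranges of these genes overlapped, so their order is not fixed by these libraries. Then came Tcf3, a widely expressed partner of bHLH factors, at 535 TPM, Sox3 at 475, Hes6 at 472, the LIM cofactor Ldb1 at 436 and the Hippo pathway factor Tead2 at 423 ± 14.7. The pallial pair Emx1 and Emx2 stood at 258 ± 24.0 and 254 ± 10.2 TPM, and Emx2 was even across libraries, with 261, 247, 263 and 243 TPM.

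The genes deleted elsewhere in the series were both expressed. Dmrta2, the current symbol of Dmrt5, read 227, 224, 261 and 275 TPM (247 ± 25.2). Dmrt3 (chr19:25610301-25623921) read 95.2, 75.2, 83.5 and 96.1 TPM (87.5 ± 10), so all 4 Dmrta2 values lay above all 4 Dmrt3 values. Their paralog Dmrta1 stood at 39.9 TPM, Dmrtb1 at 23.7 and Dmrt1, known from the gonad, at 4.69. Dmrt2, Dmrtc1a and Dmrtc2 stayed under 1 TPM. Dmrta2 made up 61.0% of the summed level of the family.

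Single members carried most of the level in several other families. Pax6 read 69.1, 39.8, 48.2 and 75.2 TPM and made up 94.9% of the Pax sum, with Pax7 at 1.10 TPM and the other 7 members under 1. The Pax sum was 61.2 TPM, and 119 TPM when the longest transcript served as gene length in place of the union of all exons. Lhx2 made up 78.6% of the LIM homeobox sum, Tead2 87.5% of the Tead sum and Tcf3 84.7% of the E protein sum. The Sox, Zic and Id families were spread more evenly, with 28.8%, 44.5% and 51.0% of the sum in the highest member. In the Sox family 17 of 20 members reached 1 TPM, Sox2 and Sox3 leading, followed by Sox12 (361 TPM), Sox4 (192), Sox9 (178) and Sox1 (169); all 5 Zic genes did, from Zic1 at 180 to Zic5 at 20.8 TPM. The 4 Id genes, whose products block bHLH factors, ran from Id4 at 417 TPM to Id2 at 74.9.

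Hox genes, which pattern the hindbrain, spinal cord and trunk, were at or near 0. None of the 38 measured reached 1 TPM, 24 had no count in any library, and the highest means were 0.21 TPM for both Hoxd8 and Hoxb9. Their promoters were not poor in CG: the 21 in the RefSeq table had a median of 12, beside 16 for the 165 transcription factor promoters at 1 TPM or more and 11.5 for the 78 under it. The 120 bases before the starts of Hoxa13 and Hoxd10 are shown for comparison with Lhx2 and Sox2, in the same form with CG in capitals.
Hoxa13 (chr6:52260881-52261000, minus strand): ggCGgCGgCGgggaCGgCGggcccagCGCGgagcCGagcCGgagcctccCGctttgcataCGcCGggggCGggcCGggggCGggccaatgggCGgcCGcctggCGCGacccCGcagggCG
Hoxd10 (chr2:74691771-74691890, plus strand): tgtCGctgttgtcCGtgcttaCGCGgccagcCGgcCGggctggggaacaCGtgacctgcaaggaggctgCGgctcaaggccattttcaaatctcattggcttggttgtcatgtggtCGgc

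These stretches held 21 and 9 CG dinucleotides, beside 19 and 10 in the printed stretches of Lhx2 and Sox2 and 8 at the second Lhx2 start, although Hoxa13 had 1 count over the 4 libraries and Hoxd10 had 0.

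**Figure D3:**
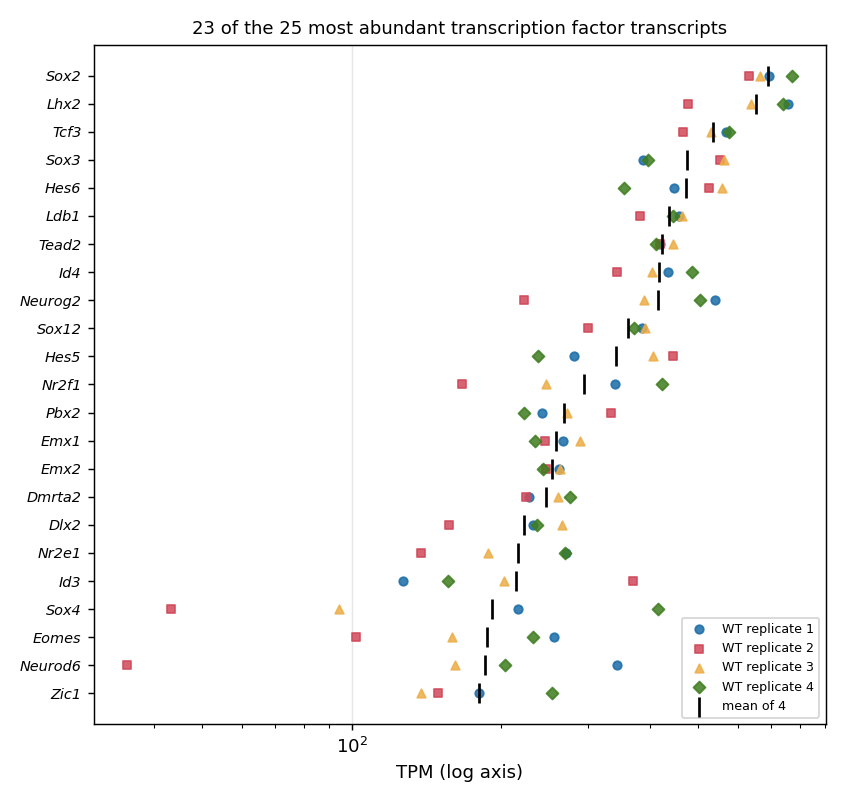
TPM (x axis, log axis) of 23 of the 25 transcription factors with the highest mean TPM (y axis), with 1 marker per WT library and a bar at the mean of 4. Sox2, Tead2 and Emx2 lie close together across libraries, and Neurod6 and Sox4 run from 35.3 and 43.3 TPM in replicate 2 to 342 and 415 TPM in another library.

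Regional markers were read by list, to show which parts of the embryonic brain the tissue held. Beside each list count below, the share over all coding genes was 63.0% at 1 TPM and 45.5% at 10 TPM. The dorsal pallial list had the highest median of the regional lists: all 14 genes passed 10 TPM, with a median of 232 TPM, and their sums were 4014, 2964, 3616 and 4146 TPM. The proneural factor Neurog2, which drives glutamatergic neurogenesis, read 541, 223, 389 and 504 TPM, and its relative Neurog1 72.7, 76.9, 72.2 and 73.0. The layer 5 determinant Fezf2 stood at 140 TPM and Gli3, a repressor of ventral fate, at 80.1 TPM.

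Cortical hem genes were present at lower levels, with 16 of 17 at 1 TPM and a median of 20.9 TPM. Wnt3a, the defining ligand of the hem, was even across libraries at 18.9, 17.5, 18.4 and 19 TPM, and the hem and roof plate factor Lmx1a read 22, 17.7, 20.5 and 23.5. Wnt8b, which reaches into the medial pallium, read 80.6, 53.9, 43.5 and 98.2 TPM. Wnt2b varied most of these ligands, at 10.2, 1.28, 3.76 and 14.2 TPM. Free of the length trend, its differences from the mean were 0.79, -1.61, -0.36 and 1.18 log2, lowest in replicate 2. The BMP ligand Gdf7 had a mean of 0.78 TPM that 1 library carried, with 2.48 TPM in replicate 4 and 0.11 to 0.31 in the other 3. The Wnt agonist Rspo1 (119, 244, 176 and 138 TPM) and Id3 (127, 369, 203 and 157 TPM) had the highest levels of the list, and both were highest in replicate 2. Free of the length trend, replicate 2 lay 0.52 log2 above the mean in Rspo1 and 0.81 in Id3. Id3 is also expressed by vessels and mesenchyme.

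Genes of the rostral patterning centre were all above 1 TPM. Fgf17 read 61.0, 189, 93.5 and 54.9 TPM. Fgf8, of lower level, stood at 45.2 TPM in replicate 2 and 12.3 to 15.7 TPM in the other 3. In CPM, Fgf8 read 4.19, 20.5, 6.09 and 3.77. Both genes were higher in replicate 2 than in the other 3. After removal of the length trend, replicate 2 lay 0.97 log2 above the mean of the 4 libraries in Fgf17 and 1.07 in Fgf8. The FGF-induced genes of the list did not all follow. Etv4, a transcription factor induced by FGF signalling, read 15.5, 38.4, 20 and 17.4 TPM, highest in replicate 2, and there lay 1.05 log2 above the mean after the same adjustment. Dusp6, a phosphatase that damps the pathway, read 51.9, 63.7, 39.9 and 65.0 TPM, a range in which replicate 2 did not stand apart.

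Markers of the ventral telencephalon were well above the background of unexpressed regions. All 15 genes of the lateral ganglionic eminence passed 1 TPM (median 38.7), among them the progenitor factors Gsx2 at 57.0, 70.9, 93.1 and 54.9 TPM and Dlx2 at 232, 157, 265 and 237. The medial ganglionic eminence and preoptic list had all 8 at 1 TPM (median 20.3). Nkx2-1, which defines medial eminence progenitors and is normally absent from cortical progenitors, read 84.8, 62.9, 97.7 and 58.3 TPM. Lhx6, carried by migrating interneurons, read 34.6, 14.3, 39.3 and 26.3 TPM, and the peptide gene Sst 139, 43.6, 129 and 71.3. In these 3 genes replicates 1 and 3 were higher than replicates 2 and 4. Ventral progenitors and migrated cells were not separated in these libraries.

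Lists for more distant regions were low. In the hypothalamus list 4 of 12 genes reached 1 TPM (median 0.44), and the leaders were Nkx2-1 and Fezf1 (62.3 TPM), which are also telencephalic. Pomc, a neuropeptide precursor gene of the hypothalamus, stood at 13.0 TPM and Otp at 1.24, while Rax, Sim1 and Nkx2-4 stayed at 0.21, 0.46 and 0.21 TPM. In the midbrain and hindbrain list 5 of 15 did (median 0.27), among them Fgf8 and Gbx1 (10.5 TPM); Pax2, Wnt1, Phox2a and En2 were at 0.49, 0.39, 0.16 and 0.05 TPM, and Ptf1a had no count. En1 was the exception by library, at 0.05, 1.88, 0.28 and 6.78 TPM. In the eye list 4 of 13 did, Vax1 leading at 62.9 TPM and Rax and Six6 staying at 0.21 and 0.30. The thalamus and prethalamus list was intermediate, with 10 of 14 genes at 1 TPM (71.4%, beside 63.0% of all coding genes). Its median was 8.97 TPM, beside 6.29 over all coding genes, so the list as a whole was near the level of coding genes at large. Barhl2, which is also in the list for Cajal-Retzius neurons, stood at 48.4 TPM, Lhx9 at 21.6, Tcf7l2 at 18.8 and Irx3 at 10.9. By contrast, Irx1, Irx2 and Sox14 stayed at 0.76, 0.53 and 0.23 TPM.

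**Figure D4:**
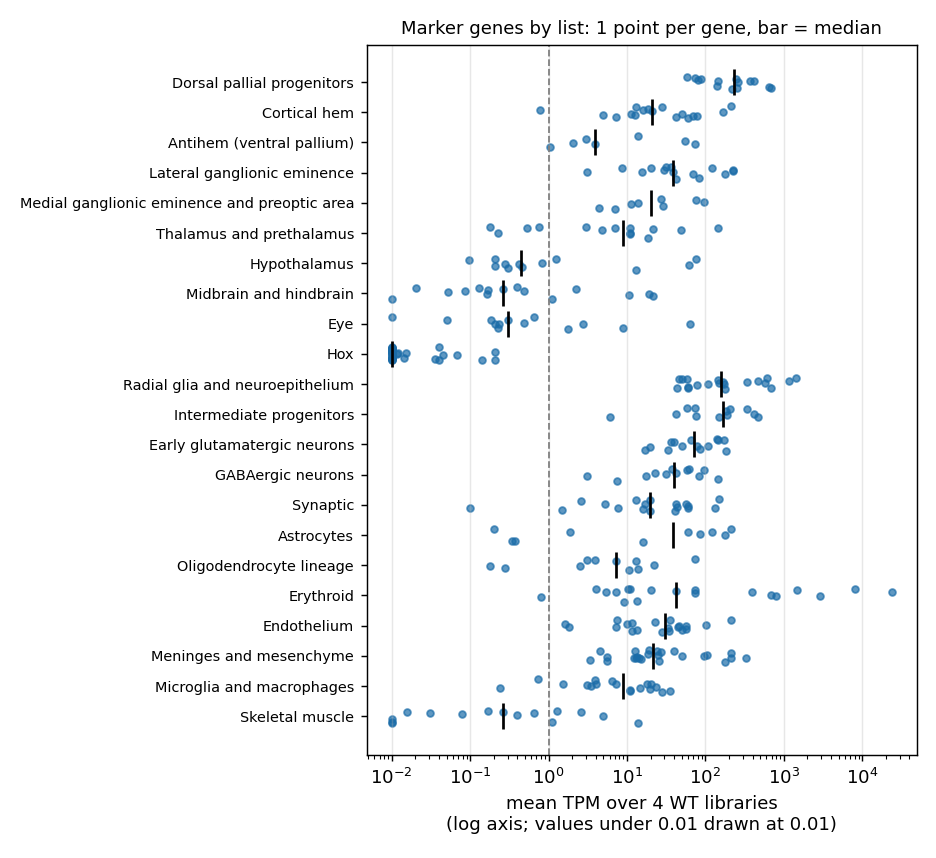
Mean TPM over the 4 WT libraries (x axis, log axis) of the genes of 22 lists (y axis), with 1 point per gene, a bar at the median of each list and a dashed line at 1 TPM. The dorsal pallial, radial glia and intermediate progenitor lists lie to the right, and the Hox, hypothalamus, midbrain and hindbrain, eye and skeletal muscle medians lie left of the line.

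Among the lineage lists, radial glia had the most even sums. All 20 genes exceeded 10 TPM (median 158 TPM), and their sums of 6503, 6715, 6712 and 6487 TPM differed by no more than 1.04-fold. Vim, the intermediate filament of radial glia, read 1368, 1488, 1491 and 1383 TPM, Fabp7, their fatty acid binding protein, 1229, 1304, 1248 and 931, and Nes, nestin, 657, 514, 542 and 694. The Notch target Hes5 read 280, 444, 405 and 237 TPM, while Hes1, a target of the same pathway, was even at 143, 135, 153 and 143. Single members did not all share the evenness of the sum: the adhesion gene Cdh2 read 136, 36.5, 59.9 and 202 TPM, lowest in replicate 2, and the short gene Dbi 482, 784, 647 and 366, highest there.

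Proliferation genes had sums nearly as even. The 18 S-phase genes summed to 3436, 3119, 3226 and 3402 TPM and the 18 G2/M genes to 3120, 3269, 3125 and 3436, a 1.10-fold range in each, and all genes of both lists passed 10 TPM. Rrm2, which supplies deoxynucleotides, was flat at 590, 557, 555 and 577 TPM. The growth-phase cyclin Ccnd2 was not, at 640, 102, 244 and 723 TPM, and free of the length trend replicate 2 still differed from the mean by -1.06 log2. The cell cycle inhibitor Cdkn1c, an imprinted gene, was highest in replicate 2 at 454, 766, 548 and 565 TPM, 0.39 log2 above the mean without the length trend.

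Intermediate progenitor genes followed, with all 12 at 1 TPM (median 166). Eomes, which defines these cells, read 256, 102, 159 and 232 TPM, Hes6 447, 526, 559 and 355, and the cell cycle brake Btg2 217, 133, 188 and 185. Eomes was lowest in replicate 2, and Hes6 was higher there than in replicates 1 and 4, so these TPM values did not move together. Hes6, with 1808 exonic bases, is among the short genes in which replicate 2 was generally high. With the length trend removed, the median gene of the list differed from the mean by 0.06, -0.20, -0.01 and 0.16 log2, lowest in replicate 2.

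The summed levels of neuronal lists were lowest in replicate 2. The 14 early glutamatergic genes were all above 10 TPM (median 71.9 TPM), and their sums were 1663, 537, 1023 and 1496 TPM, a 3.10-fold range. Without replicate 2 the mean of the other 3 sums was 1394 TPM, against 1180 with it. Neurod6 and Neurod2, bHLH factors of newborn glutamatergic neurons, read 342, 35.3, 161 and 204 TPM and 255, 31.2, 118 and 181 TPM. Bcl11b, a factor of subcerebral projection neurons, read 121, 29.5, 64.7 and 130, and Tbr1, of the preplate and layer 6, 203, 94.6, 145 and 247. With the length trend removed, the median gene of this list differed from the mean by 0.31, -0.42, 0.01 and 0.18 log2, and Neurod6 by 1.27, -2.0, 0.11 and 0.61. For radial glia the same medians were -0.04, 0.01, 0.05 and -0.04, and for the S-phase list -0.09, 0.20, 0.04 and -0.18. The median of the glutamatergic list in replicate 2 thus stayed the lowest of the 4 after that adjustment. Replicate 2 was also the shallowest library and the one richest in globin reads, and the part of either in this result was not tested.

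In summed TPM, other neuronal lists also had replicate 2 at the bottom. Synaptic genes, of which 17 of 18 passed 1 TPM at a median of 19.7, summed to 894, 407, 672 and 778 TPM, led by the vesicle protein gene Vamp2 at 190, 97.4, 148 and 168. GABAergic genes summed to 697, 390, 690 and 638 TPM. With the length trend removed, the median gene in replicate 2 differed from the mean by -0.49 log2 in the synaptic list and by -0.28 in the GABAergic list. The pan-neuronal sum, dominated by the tubulins, moved less, at 15425, 11741, 15067 and 12209 TPM. With the length trend removed, its median gene differed from the mean by 0.22, -0.28, 0.09 and -0.02 log2, in replicate 2 as far as in the GABAergic list. Glutamate transporter genes were present, with Slc17a6 at 38.7, 19.1, 29.1 and 57.8 TPM and Slc17a7 at 30.3, 8.21, 18.4 and 21. Reln, the secreted guide of Cajal-Retzius cells, read 23.1, 6.52, 15.9 and 25.1 TPM, and Trp73, a marker of hem-derived Cajal-Retzius cells, 37.9, 15.0, 21.9 and 41.3. The Cajal-Retzius list did not share this order once the length trend was removed. Its median gene then differed from the mean by -0.01, 0.04, -0.10 and 0.15 log2, so replicate 2 was not the lowest. Pou3f3 and Pou3f2, used by both progenitors and upper layer neurons, stood at 179 and 61.7.

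Glial genes split by their time of use. Of the astrocyte list, Sox9 (178 TPM), Fgfr3 (122 TPM) and Gja1 (60.6 TPM), which radial glia also express, were high, while Gfap, Aqp4 and S100b, which mark mature astrocytes, stood at 0.20, 0.34 and 0.37 TPM. In the oligodendrocyte list Olig2, also a ventral progenitor factor, read 63.6, 78.5, 93.5 and 57.7 TPM, while the myelin gene Mag was at 0.28 TPM.

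Choroid plexus genes varied 4.48-fold in sum (987, 220, 714 and 632 TPM), and 79.1% of that sum was Ttr, the transthyretin gene, at 826, 126, 599 and 469 TPM. Kcne2, a potassium channel subunit of the same epithelium, read 24.0, 0.72, 12.2 and 11.6 TPM. Free of the length trend, replicate 2 differed from the mean by -1.99 log2 in Ttr and -3.23 in Kcne2. Otx2, which choroid plexus and hem share, was even at 48.5, 48.7, 41.9 and 56.7 TPM, and Cldn2 and Kl, genes of the mature plexus, stayed at 0.33 and 0.08.

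**Figure D5:**
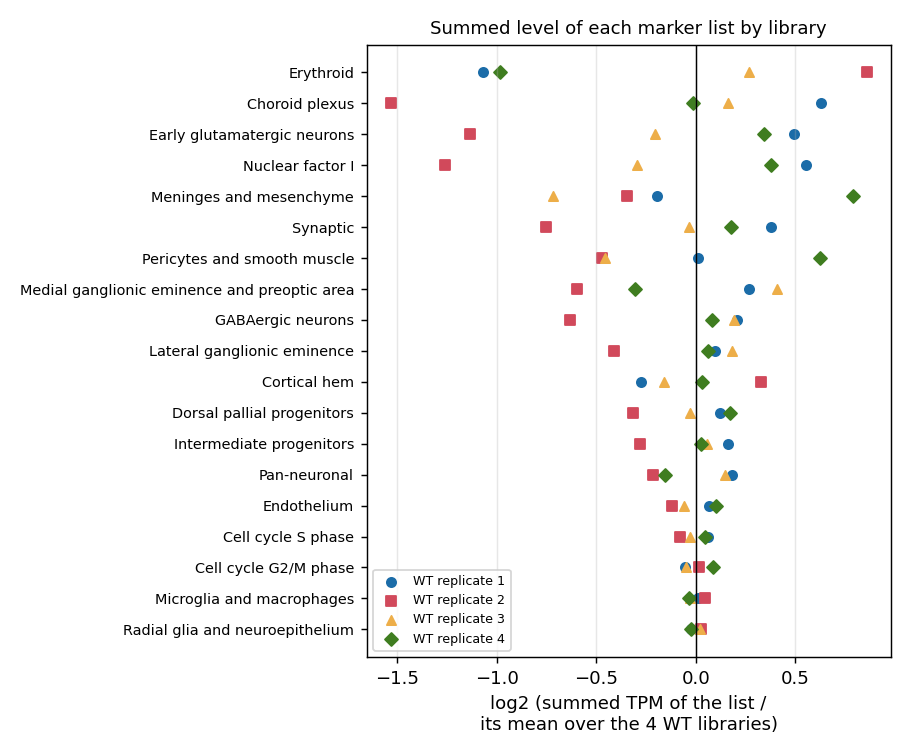
Summed TPM of 19 lists in each WT library relative to the list's mean over the 4 libraries (x axis, log2), with 1 marker per library. Replicate 2 is the highest library in the erythroid list and the lowest in the choroid plexus, early glutamatergic and synaptic lists, replicate 4 is the highest in the meningeal list, and the radial glia, microglia and cell cycle lists lie near 0 in all 4.

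The non-neural content was led by blood. Globin genes took 0.314%, 1.60%, 0.932% and 0.305% of the counts and, being short, 1.81%, 6.90%, 4.56% and 1.92% of all TPM, so they also lower the TPM of every other gene most in replicate 2. Of the 19 erythroid genes measured, 18 passed 1 TPM (median 41.8), and they summed to 18215, 69292, 45933 and 19325 TPM, a 3.80-fold range. Without replicate 2 the mean sum was 27824 TPM, against 38191 with it. The third embryonic globin, Hbb-bh1, which is used earliest in primitive red cells, had the widest range, at 417, 8002, 2586 and 642 TPM. The adult beta-globin Hbb-bs did not follow, at 423, 286, 553 and 308 TPM, lowest in replicate 2, although 46.8% of its 50-base words are unique and its reads may be shared with its copy Hbb-bt, which read 456, 915, 973 and 407. Genes outside the globin loci also differed: the erythroid master factor Gata1 read 2.87, 9.96, 6.18 and 2.90 TPM, and the heme synthesis enzyme Alas2 40.6, 83.8, 120 and 46.3. In Gata1 and Alas2 replicates 2 and 3 lay above replicates 1 and 4. After removal of the length trend the list's median differences were -0.73, 0.47, 0.39 and -0.27 log2.

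The summed level of vessel genes was more even. All 20 endothelial genes passed 1 TPM (median 30.3), with sums of 826, 725, 757 and 845 TPM. Cldn5, the tight junction protein of brain endothelium, read 99.0, 111, 100 and 98.4 TPM, and Slc2a1, the glucose transporter of the blood-brain barrier, 216, 197, 225 and 210. Other members varied more: Cdh5, the adhesion protein of endothelial junctions, read 67.8, 37.5, 40.7 and 82.9 TPM. Pericyte and smooth muscle genes were highest in replicate 4, with sums of 249, 178, 180 and 380 TPM, and free of the length trend their median in that library lay 0.40 log2 above the mean.

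Meningeal and mesenchymal genes set replicate 4 apart. All 24 passed 1 TPM (median 21.6), and their sums were 1283, 1156, 892 and 2534 TPM. Without replicate 4 the mean sum was 1110 TPM, against 1466 with it. Col1a1, the chain of fibrillar collagen I, read 161, 86.3, 75.3 and 514 TPM, Col3a1 197, 149, 110 and 387, and Col1a2 82.0, 54.5, 43.8 and 207. In all 3 genes replicate 4 was above the other libraries. With the length trend removed the list's median differences were -0.21, 0.27, -0.44 and 0.51 log2, so replicate 4 remained highest and replicate 3 lowest. Igf2, the imprinted growth factor of mesenchyme, read 309, 294, 235 and 499 TPM and made up 22.8% of the list's sum. Its level is uncertain, because 38.8% of its 50-base words are unique.

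The summed level of microglial genes was even. Of 18, 16 passed 1 TPM (88.9%, beside 63.0% of all coding genes). Their median was 9.01 TPM, beside 6.29 over all coding genes. The sums of 214, 219, 208 and 208 TPM spanned 1.06-fold, although single members did not all share that evenness. The complement gene C1qb read 34.6, 41.0, 34.5 and 32.1 TPM and C1qa 26, 34, 29.8 and 21.8, while the receptor Cx3cr1 read 9.50, 3.07, 5.03 and 8.36 and P2ry12 4.45, 1.62, 2.52 and 3.80. The pan-leukocyte gene Ptprc stood at 0.24 TPM.

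Lists for tissues outside the brain had low medians. In the skeletal muscle list 5 of 15 genes reached 1 TPM (median 0.27), led by the myosin light chain gene Mylpf at 13.7 TPM, while Myog, Myf5 and Myf6 had no count and Myod1 stood at 0.08 TPM. In the surface ectoderm list 9 of 14 did (64.3%, beside 63.0% of all coding genes, at a median of 2.34), led by the epithelial adhesion gene Epcam at 11.3 TPM, and Trp63 and Krt14 were at 0.09 and 0.29. In the neural crest and Schwann cell list 8 of 12 did (66.7%, near the share over all coding genes, at a median of 1.53). That list was led by Isl1 at 36.4 TPM and the neurotrophin receptor Ngfr at 16.4. Cartilage markers were split, with Sox9 and Col2a1 (119 TPM), both also found in neuroepithelium at this age, high and Acan and Matn1 at 0.14 and 0.09. Immediate early genes, which respond within minutes to stimulation, had a median of 7.03 TPM and even sums from 390 to 431, with Jun at 185 TPM and Fos at 1.34.

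The spread between the 4 libraries was measured on 14679 genes that passed a low-count filter. The median coefficient of variation of CPM was 0.241 (quartiles 0.146 and 0.364), and 35.3% of genes differed by more than 2-fold between their highest and lowest library. Without replicate 2 that share was 14.3%, and without replicate 4 it was 21.6%. Removal of the length trend brought it to 20.7%, and the median coefficient of variation to 0.176. The common biological coefficient of variation estimated by edgeR was 0.309 with all 4 libraries. Replicate 2 was the highest library for 35.3% of genes and the lowest for 40.2%, and replicate 4 for 34.9% and 37.7%, against 9.91% and 11.9% for replicate 3. By pairs, replicates 1 and 4 were the most alike, with 2.53% of genes over 2-fold apart, and replicates 2 and 4 the least, with 29.1%. Across genes, which are not independent replicates, Pearson's r of log2 CPM was 0.985 and 0.922 for these pairs.

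The genes with the largest coefficient of variation, among those with a mean of at least 10 CPM, fell mostly into 3 kinds. The first was erythroid genes, among them the embryonic globins Hbb-bh1 and Hba-x. The second was sex-linked genes. Xist, the RNA that coats the inactive X chromosome, read 0.346, 462, 770 and 1.45 CPM, and the Y-linked genes Eif2s3y 58.0, 6.63, 0.343 and 83.5, Ddx3y 29.6, 2.46, 0.30 and 59.6, Kdm5d 37.9, 3.37, 0.0429 and 64, and Uty 11.7, 1.18, 0.0858 and 27.6. Replicates 1 and 4 thus held Y-linked reads with hardly any Xist, replicate 3 the reverse, and replicate 2 both, with all 4 Y-linked genes above replicate 3 and below replicates 1 and 4. Whether replicate 2 was a pool of embryos or a mixture was not tested, and this bears on every value in which that library stands apart.

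The third kind was genes highest in replicate 4, many of them long and lowest in replicate 2, such as Vcl (8191 exonic bases, 11.1, 1.39, 4.72 and 34.9 CPM), which codes for a cell adhesion protein. Free of the length trend Vcl still differed from the mean by -2.03 log2 in replicate 2 and 1.97 in replicate 4. Col12a1 and Tnc, matrix genes of mesenchyme, were high in replicate 4 alone, at 57.2 and 40.0 CPM against 9.74 to 13.5 and 8.75 to 10.2 in the other 3, and lay 1.24 and 1.27 log2 above the mean without the length trend. Of the 25 genes that varied most once the length trend was removed, 22 were lowest in replicate 2. Among them were Plxna4, a semaphorin receptor of growing axons, at 69.2, 3.79, 24.9 and 68.3 CPM, Lzts1, which acts in newborn neurons as they leave the ventricular zone, at 31.5, 1.5, 7.47 and 29.8, and Dusp4, a MAP kinase phosphatase, at 165, 12.4, 51.0 and 207.

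The gene at the head of the ranking was of none of these kinds. Nr3c1, the glucocorticoid receptor, read 7.2, 114, 8.75 and 12.2 CPM, with replicate 2 above the other 3 libraries, and 2.98 log2 above the mean without the length trend. Scaled by the library total alone it was 109 CPM in replicate 2 and 4.79 to 9.43 in the 14 non-WT libraries. Crabp1, a retinoic acid binding protein, was also highest in replicate 2, at 14, 146, 31.0 and 29.6 CPM, but scaled by the library total alone it stood at 139 CPM there and ran from 4.36 to 139 over those 14 libraries. Six2, a homeobox gene of head mesenchyme, read 20.9, 145, 49.4 and 92.2 TPM. What set Nr3c1 apart in replicate 2 was not tested.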

How the data were processed

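Raw counts per Ensembl gene were deposited by the authors, 1 table per library, with no normalisation. RNA came from RNeasy mini columns and libraries from the TruSeq RNA Sample Prep Kit v2, per the labels' protocols. The submitters' processing notes list DESeq2 1.8.2, featureCounts 1.4.6-p1, STAR 2.3.0e, CASAVA 1.8.2, bcl2fastq and FastQC 0.10.1, with mm10 as the build and no order of steps. The sources used here do not give the annotation release, the strand setting or the counting of reads with several matches.

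Of 38355 listed genes, 36602 matched GENCODE M21 (GRCm38) by identifier; the rest held 0.379% of WT counts, and 5 summary entries were all 0. No mitochondrially encoded gene was matched. TPM were computed from counts and the union of exons of each gene. CPM were scaled by edgeR 4.0.16 (trimmed mean of M-values, R 4.3.3), with filterByExpr leaving 14800 genes, 14679 with a symbol. Log2 CPM with the length trend removed used a prior count of 2. The log2 CPM of the length bins, GC bins and library pairs had a small constant added to the CPM instead. The length trend was a lowess curve of span 0.3. Dispersion estimation was tested on simulated counts. Tables were made in Python 3.11.15.

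No test was planned and no p-value is given. Members and lists were chosen with earlier results of these data known. Named genes were the 25 highest coding genes, the 25 highest transcription factors, up to 6 highest members of each list with defining members under 1 TPM, and the 25 largest coefficients of variation at 10 CPM or more; some of these genes are not reported here. Alas2, Cdh2, Cx3cr1, Dusp4, Etv4, Fos, Gata1, Hbb-bs, Lmx1a, Lzts1, P2ry12, Plxna4, Reln, Slc17a6, Slc17a7, Trp73, Wnt2b, Wnt3a, Hoxa13 and Hoxd10 lie outside that rule or were picked for display after their values were seen. The bins of length and GC content, the search for unique words, the counts of words in promoters and the look at non-WT libraries were also chosen after the data had been seen. Alternatives were leaving out each library, other gene lengths, thresholds, scalings and filters.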

Additional observations from a re-analysis of the deposited data

Results flagged for a closer look

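In each of the following genes 1 library lay far from the other 3, by the gap to its nearest neighbour as a share of the whole range; chance alone flags about 1 in 20 groups of 4, and 9 of the 239 genes and lists examined were flagged. Nr3c1 stood at 43.9 TPM in replicate 2, against 3.79 to 7.0 in the other 3. Fgf8 stood at 45.2 TPM in replicate 2, against 12.3 to 15.7. Cldn5 was at 111 TPM in replicate 2 against 98.4 to 100, a gap of small size. Tnc at 22.7 TPM against 3.90 to 4.88 and Col12a1 at 16.6 TPM against 2.22 to 3.59, both genes of connective tissue, were high in replicate 4. So were Gdf7 at 2.48 TPM against 0.11 to 0.31 and Irx2 at 1.08 TPM against 0.34 to 0.36. Phox2a, a hindbrain gene, was at 0.66 TPM in replicate 3 and at 0 in the other libraries. Hoxa13 was at 0.0566 TPM in replicate 1, which was 1 read, and at 0 elsewhere.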

How the results depend on the processing

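Counts of genes, coding genes and factors at 1 TPM stayed within 1.5 times the reported count when each library was left out, with the longest transcript as gene length and in TPM without globin genes, as did the counts of genes and of coding genes at other thresholds. With the longest transcript and in TPM without globin genes, the summed TPM of 11 of the 13 lists examined moved by no more than its spread. Leaving out a library cannot move a mean beyond the SD of its libraries, so that setting was no check on these sums. The exceptions were the lists with the smallest spread. The radial glia sum was 6604 TPM, and 6964 with the longest transcript or 6871 without globins; the microglia sum was 212 TPM, and 190 or 221. Of 105 other levels, 36 moved beyond their spread with the longest transcript and 2 without globin genes. The spread itself depended on which libraries and genes entered. The median coefficient of variation was 0.241, ran from 0.194 to 0.269 with each library left out in turn, and was 0.368 with no filter on low counts. The share of genes over 2-fold was 35.3%, ran from 14.3% to 33.5% with each library left out (14.3% without replicate 2 and 21.6% without replicate 4), and was 58.2% with no filter. The biological coefficient of variation was 0.309 and ran from 0.250 to 0.360. Without the length trend, a setting added after the data had been seen, these measures were 0.176, 20.7% and 0.250. For the spread measures a move was judged against the SD of the leave-one-out values. DESeq2 size factors and scaling by total counts moved none of them by more. No paired analysis was possible because every result is a level in 1 group and comes from no test. The shallowest library held 19602718 counts, which limits statements on genes under 1 TPM.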
